A study of Acomys cahirinus and Mus musculus with 6 samples.

Results

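The 8 genes described here belong to the insulin-like growth factor (IGF) axis: the ligand Igf1, its receptor Igf1r and the binding proteins Igfbp2, Igfbp3, Igfbp4, Igfbp5, Igfbp6 and Igfbp7. They were taken by name from the 20381 genes of the deposited count table and followed across the annotated cell types of all 6 libraries. The set was selected on measured values in part: Igfbp6 counts in fibroblasts were high with each inhibitor. The fibroblast contrasts of the inhibitors are therefore given as a description, and nothing is rested on them. All 8 genes had counts in both species.

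The material was ear pinna skin around a healing ear punch, dissociated to single cells and sequenced by 10x Genomics 3′ chemistry. In the spiny mouse Acomys cahirinus, labelled wild-type, 4 groups received injections from day 12 to day 15: the vehicle DMSO, or a drug against ERK, against ErbB2 or against FGFR1/2/3. In CD1 mice, the other 2 groups had micro-beads placed in the tissue at day 10, soaked either in PBS or in recombinant FGF2 and NRG1, which are ligands of the FGF and ErbB receptors. Every group was punched and is 1 library with no replicate, no source used here gives the number or age of the animals behind a library, and no group was left untreated. Hence no difference below has a test: intervals are exact 95% Poisson or binomial intervals that cover counting error only, and a difference between libraries cannot be told apart from a difference between animals.

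IGF1 is a secreted growth factor that signals through the tyrosine kinase IGF1R and drives growth and survival through the PI3K-AKT and ERK pathways. In tissue fluid most IGF is held by IGF-binding proteins, which can store it, keep it from the receptor or deliver it when a protease cuts them. IGFBP2 to IGFBP6 bind IGFs with high affinity, IGFBP6 prefers IGF2, and IGFBP7 is a related vessel and matrix protein with low affinity. In skin, the dermal fibroblast is a known source of IGF1 for the epidermis, whose keratinocytes carry the receptor.

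Levels are in CPM: a gene's molecules, each marked by a unique molecular identifier (UMI), as a share of all UMIs of the cell class, on the usual CPM scale, and a ratio is a log2 difference of CPM with 1 UMI added on each side. A gene counted as measured with at least 30 UMIs over both libraries of a comparison, and as higher or lower from 1.5-fold. The 39577 cells were spread unevenly, from 631 with the ERK inhibitor to 15363 with DMSO, and the median depth per cell ran from 3125 to 6915 UMIs. Of the barcodes, 184 occurred in more than 1 library, with at most 49 for any pair. Cell types are the authors' annotation, with exceptions given by number. These are clusters labelled unknown, or with more markers of another type than of their own among the leading genes. That was 1 gene for clusters 1, 31 and 44, labelled basal or cycling basal, and 2 haemoglobin genes for cluster 21, labelled suprabasal. The keratinocyte classes below leave these clusters out, and cluster 1 alone had 1013 DMSO cells. Cluster 34, labelled fibroblast, was set apart after the data were seen. Its leading genes included Abca8a, Lama2, Itih5 and Igfbp6 itself. Its mouse cells carried Schwann cell markers at 5321 CPM with PBS and 3148 CPM with FGF2 and NRG1, 8 of 8 detected in each. Its spiny mouse cells had 0 to 134 CPM of that list. Cluster 38, labelled dermal sheath and papilla, was led by the mural genes Myh11, Rgs5, Kcnj8, Abcc9 and Des. Cluster 7, labelled as circulating monocytes, was led by Cxcr2, Csf3r, Fpr1 and Il1b, and 2 of the neutrophil markers were among its leading genes. The class called fibroblasts below is cluster 32 alone, with 3 fibroblast markers among its leading genes.

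The binding proteins share a cysteine-rich amino-terminal domain that holds the IGF. The coding stretches below show where the mouse genes are nearly alike and where they part. They are read 5′ to 3′ on the coding strand of exon 1 in GRCm38 with the GENCODE vM21 models, and capitals mark the codons of the run glycine-cysteine-glycine-cysteine-cysteine.
Igfbp2 (chr1:72824778-72824801, plus strand, codons 67 to 74): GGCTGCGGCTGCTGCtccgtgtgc
Igfbp3 (chr11:7213566-7213589, minus strand, codons 68 to 75): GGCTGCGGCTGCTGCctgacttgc
Igfbp4 (chr11:99041650-99041673, plus strand, codons 52 to 59): GGCTGCGGTTGTTGCgccacttgc
Igfbp5 (chr1:72873966-72873989, minus strand, codons 51 to 58): GGCTGTGGCTGCTGCatgacttgc
The run was found in these 4 genes and not in the coding sequence of Igfbp6 or Igfbp7. All 6 were nonetheless rich in cysteine codons, with shares from 19 of 313 codons in Igfbp7 to 20 of 254 in Igfbp4. Igfbp6 had 16 of 238. Igfbp2 and Igfbp5 are neighbours on chromosome 1 on opposite strands, with 5457 bases between them. Igfbp3 and Igfbp4 are both on chromosome 11 but far apart (chr11:7206086-7213923 and chr11:99041244-99054392). The remaining genes are at chr10:87858265-87937042 (Igf1), chr7:67952827-68233668 (Igf1r), chr15:102144362-102149511 (Igfbp6) and chr5:77349240-77408041 (Igfbp7).

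The spiny mouse libraries carry mouse gene names, so levels are not compared between the species: a difference in expression and a difference in how well reads match cannot be told apart. Igfbp4 shows how far this can reach. It had 108 UMIs over all 4 spiny mouse libraries (0.622 CPM) and 5610 UMIs over both mouse libraries (105 CPM). Igf1 had 231 UMIs in spiny mouse and 1256 in mouse. Ratios of these 2 genes in spiny mouse therefore rest on few molecules. Igfbp3, which carries IGF in blood and also acts on cells locally, had 117018 UMIs in spiny mouse and 3959 in mouse.

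The cell classes that held each gene differed. With DMSO, the ligand Igf1 was at 23.03 CPM in chondrocytes (24 UMIs), 21.7 CPM in cluster 38 (5 UMIs), 21.3 CPM in fibroblasts (24 UMIs) and 14.8 CPM in cluster 34, levels whose intervals overlapped. With PBS in mouse it was at 417 CPM in fibroblasts, 229 CPM in chondrocytes and 98.0 CPM in endothelium, each apart from the next. Endothelium, the lining of vessels, nevertheless held 46.9% of all Igf1 UMIs of that library, against 25.4% in fibroblasts. Mesenchymal classes were thus highest for Igf1 in both species, and epidermal cells had almost none: 2 UMIs in 1035 epidermal keratinocytes with PBS.

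The receptor Igf1r was broad. With DMSO it was highest in hair germ and outer bulge cells (22.0 CPM), the stem and progenitor cells of the follicle, and overlapped there with the classes next in order. In mouse with PBS it was highest in cluster 7 at 318 CPM, apart from cluster 38 at 168 CPM, which overlapped with hair germ at 134 CPM and fibroblasts at 124.5 CPM.

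Igfbp2 and Igfbp3 were counted mainly in the epidermis. Igfbp2, a binding protein of fetal and proliferating tissues, was at 442 CPM in cycling basal keratinocytes and 419 CPM in chondrocytes with DMSO, with overlapping intervals, then at 353 CPM in sebaceous gland, 342 CPM in basal keratinocytes and 297 CPM in endothelium. In mouse with PBS chondrocytes led at 702 CPM, followed by sebaceous gland at 445 CPM and cycling basal keratinocytes at 313 CPM. Igfbp3 was highest per cell class in endothelium with DMSO (1446 CPM), ahead of basal keratinocytes (1222 CPM), but basal keratinocytes held 35.7% of its UMIs and endothelium 8.27%. In mouse with PBS the order was other: basal keratinocytes at 247 CPM held 49.1% of the Igfbp3 UMIs, and endothelium was at 92.5 CPM.

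The other 4 binding proteins had their highest levels outside the epidermis. Igfbp5, which binds matrix and bone as well as IGF, was at 175 CPM in fibroblasts and 114 CPM in cluster 34 with DMSO, and fibroblasts held 48.6% of its UMIs. In mouse with PBS it was at 1613 CPM in cluster 38, 1547 CPM in fibroblasts and 1293 CPM in chondrocytes, with overlapping intervals between neighbours. Igfbp4, the substrate of the protease pappalysin, led in fibroblasts in mouse with PBS (790 CPM), ahead of cluster 38 (448 CPM). Sebaceous gland, at 317 CPM, held 36% of the Igfbp4 UMIs. Igfbp7 was highest in vessel-related classes in both species: with DMSO it was at 3669 CPM in cluster 38 and 2397 CPM in endothelium, and with PBS at 5991 CPM and 3978 CPM. Endothelium held 64.8% of Igfbp7 UMIs in mouse with PBS. With DMSO it held 26.6%, and the far more numerous epidermal keratinocytes, at a lower level, held 11897 of 23982 Igfbp7 UMIs.

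Igfbp6, the IGF2-preferring member, was highest in different classes in the control libraries. In spiny mouse with DMSO cluster 34 stood at 594 CPM (161 UMIs) and held 32.8% of all Igfbp6 UMIs, while hair germ cells were at 40.9 CPM and fibroblasts at 23.9 CPM (27 UMIs). In mouse with PBS the fibroblasts were at 1135 CPM (237 UMIs), cluster 7 at 185 CPM and cluster 34 at 54.2 CPM (14 UMIs). So cluster 34 led for Igfbp6 in spiny mouse and fibroblasts led in mouse. Schwann markers were counted in cluster 34 mainly in mouse, but spiny mouse reads may match these genes less well. Whether the cluster held the same cells in both species was not tested.

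**Figure D1:**
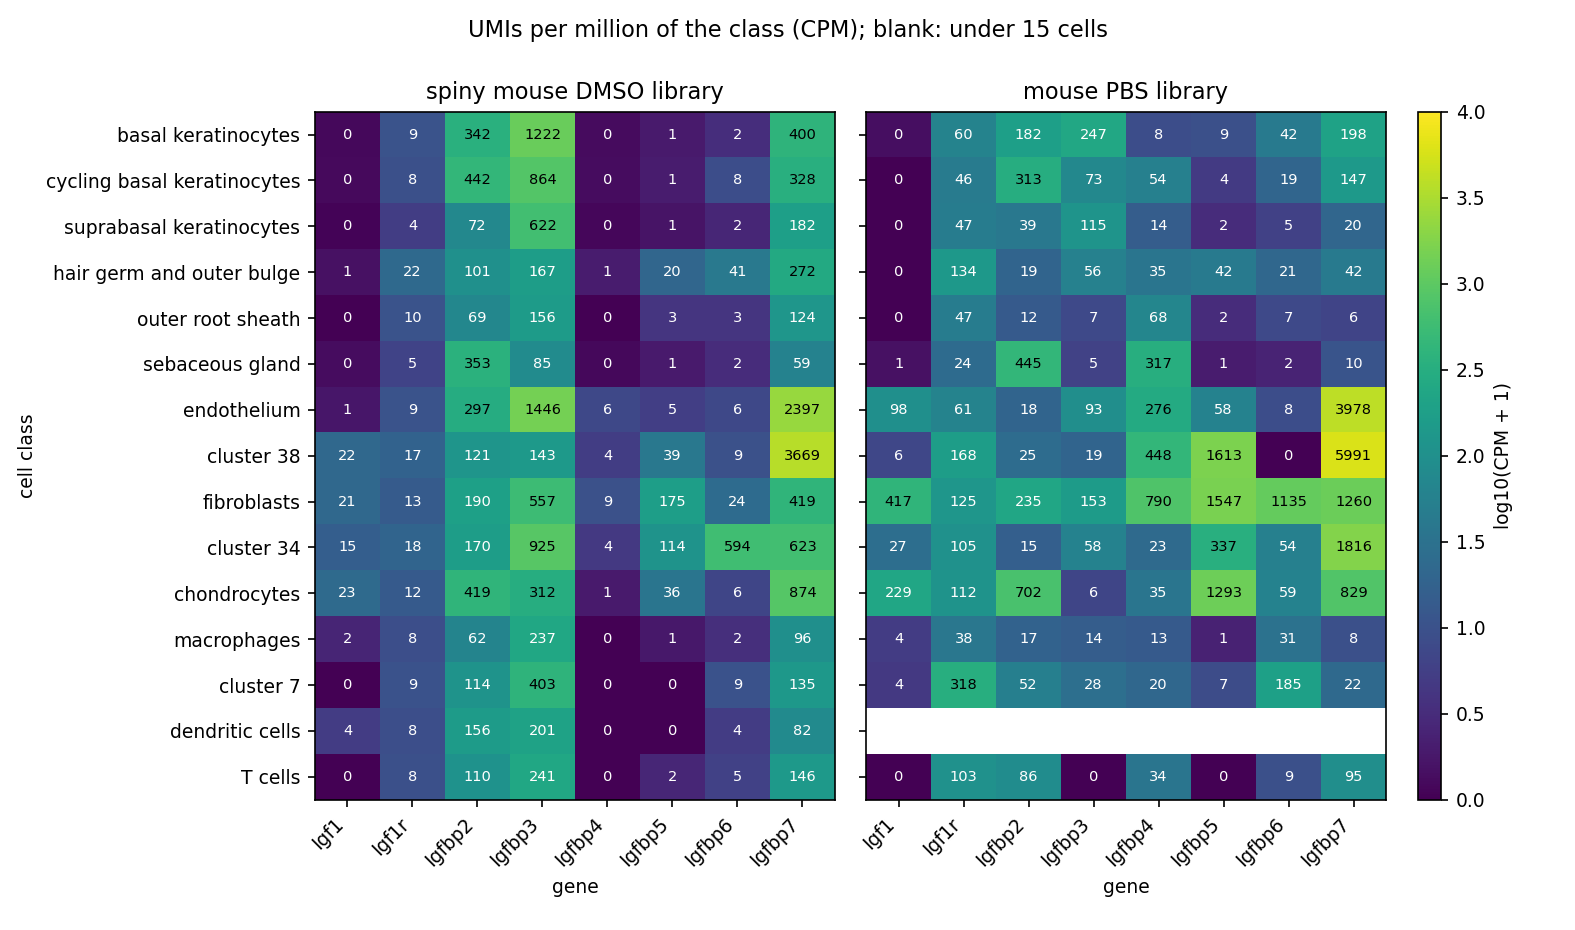
Levels of the 8 genes (columns) in 15 cell classes (rows) of the DMSO and PBS libraries, coloured by log10 of CPM plus 1; classes with fewer than 15 cells are blank. Igf1, Igfbp5 and Igfbp6 are bright in mesenchymal rows, Igfbp7 in endothelium and cluster 38 (2397 and 3669 CPM with DMSO), and Igfbp2 and Igfbp3 in basal keratinocytes (342 and 1222 CPM with DMSO).

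Fibroblasts were the class in which the genes had been singled out. Igfbp6 was at 23.9 CPM with DMSO (27 UMIs in 161 cells), 2015 CPM with the ERK inhibitor (96 UMIs in 5 cells), 129 CPM with the ErbB2 inhibitor (134 UMIs in 131 cells) and 74.6 CPM with the FGFR inhibitor (25 UMIs in 38 cells). Each inhibitor library was higher than DMSO, by 6.36 (5.77 to 7.07), 2.38 (1.82 to 3.08) and 1.64 (0.80 to 2.48) on the log2 scale. The 3 comparisons share the DMSO library, so its 27 UMIs enter all of them. The ERK inhibitor value rests on few cells: its 5 fibroblasts held 71, 23, 2, 0 and 0 Igfbp6 UMIs, and without the cell holding most UMIs in each library the ratio was 5.54. When cluster 34 was counted in, as the annotation has it, the 3 ratios were 3.97, 0.93 and 0.93.

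The share of fibroblasts with an Igfbp6 UMI was 8.07% with DMSO (13 of 161, interval 4.37% to 13.4%), 22.9% with the ErbB2 inhibitor (30 of 131, 16% to 31.1%) and 18.4% with the FGFR inhibitor (7 of 38, 7.74% to 34.3%). Thinned to 1000 UMIs per cell, these shares were 3.11%, 10.7% and 7.89%. In macrophages 0.732% of cells had an Igfbp6 UMI with DMSO and 1.6% with the ErbB2 inhibitor. Their median depths were 2376 and 3717 UMIs, against 5772 and 7866 UMIs in the fibroblasts. Even with the inhibitors most fibroblasts had no Igfbp6 UMI at this depth, and the cell with most held 34 of the 134 UMIs in the ErbB2 inhibitor library and 11 of 25 in the FGFR inhibitor library.

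Fibroblasts with an Igfbp6 UMI carried more of the adventitial and fascia genes, a list of 12 that marks fibroblasts around vessels and below the dermis. Its summed level was 423 CPM in cells with Igfbp6 and 174 CPM in cells without it with DMSO, 1171 and 297 CPM with the ErbB2 inhibitor, and 1051 and 250 CPM with the FGFR inhibitor. Pi16, which marks adventitial progenitor-like fibroblasts, was found in 6 of the 13 DMSO cells with Igfbp6 and in 3 of the 148 without, at median depths of 5319 and 5901 UMIs. Over all fibroblasts of a library, Pi16 was at 13.3 CPM with DMSO, 66.2 CPM with the ErbB2 inhibitor and 44.7 CPM with the FGFR inhibitor. In mouse the adventitial list was at 3035 CPM in PBS fibroblasts with Igfbp6 and 712 CPM in those without, whereas with FGF2 and NRG1 it was at 888 and 1073 CPM.

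**Figure D2:**
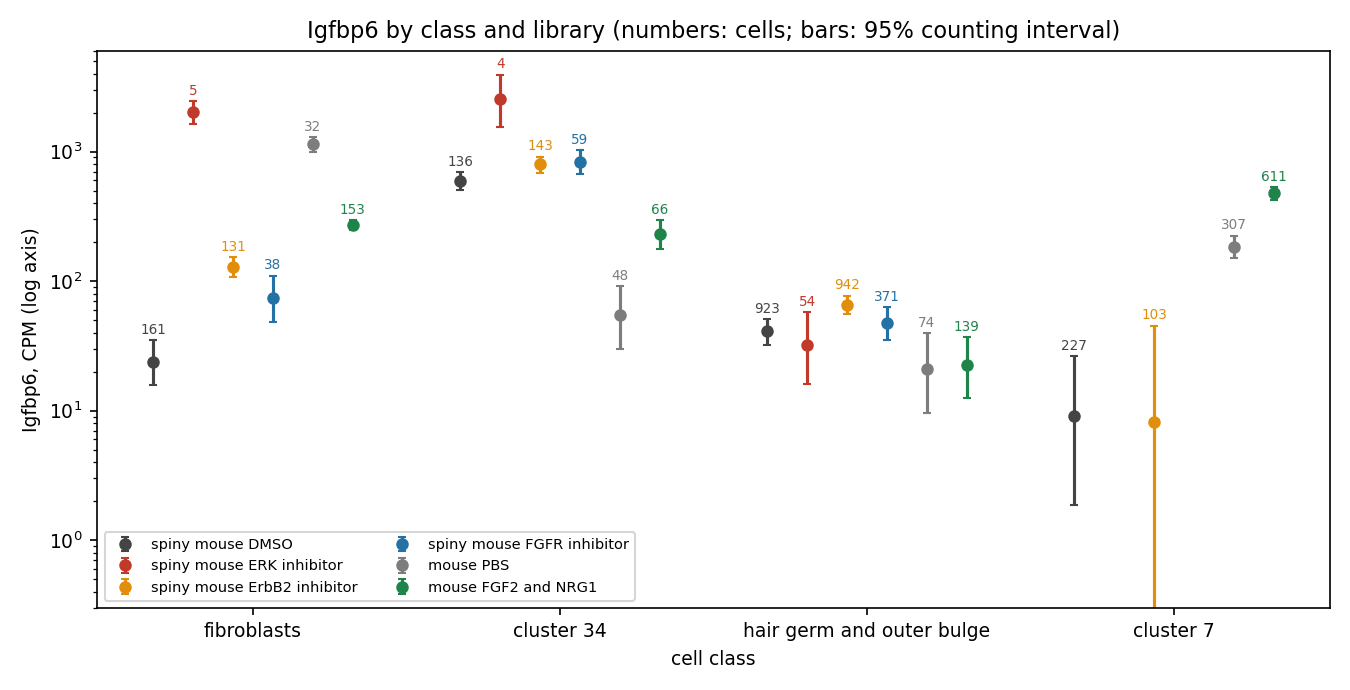
Igfbp6 level (CPM, log axis) in fibroblasts, cluster 34, hair germ and outer bulge cells and cluster 7 for the 6 libraries; points are class totals, bars are 95% counting intervals, numbers give the cells, and libraries with 0 UMIs have no point. Fibroblasts run from 23.9 CPM with DMSO to 2015 CPM with the ERK inhibitor, whose point stands on 5 cells, and cluster 34 holds 594 to 831 CPM in the DMSO, ErbB2 and FGFR inhibitor libraries.

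Ratios of the other genes lay on both sides of 0 in these fibroblasts. With the ErbB2 inhibitor Igf1 was at 48.9 CPM against 21.3 CPM (51 and 24 UMIs), a ratio of 1.17 (0.48 to 1.97), and fibroblasts there held 50% of the library's Igf1 UMIs. Igfbp3 was lower, at 260 CPM against 557 CPM, −1.10 (−1.31 to −0.89). Igf1r, Igfbp2, Igfbp5 and Igfbp7 were within 1.5-fold, with ratios of 0.11, −0.37, 0.11 and 0.06. That makes 2 of 7 measured genes higher and 1 lower, where over all measured genes of the class 11.6% were higher and 8.08% lower. Igfbp6, on whose values the set was chosen in part, is 1 of those 2, so nothing is read from the count.

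With the FGFR inhibitor Igfbp3 was at 253.5 CPM against 557 CPM, −1.12 (−1.48 to −0.81), and Igfbp2 was lower by −1.30 (−2.01 to −0.74). Igf1 counted as higher at 0.69, but on 11 UMIs and with an interval from −0.55 to 1.71; without the cell holding most in each library it was 0.46. Igfbp5 and Igfbp7 were within 1.5-fold. Here 2 of 6 measured genes were higher and 2 lower, beside 11.9% and 9.3% of all genes. Igfbp6 is again among the higher genes, so nothing is read from this count either.

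With the ERK inhibitor the 5 fibroblasts gave 3 genes higher and 2 lower of 5 measured, beside 35% and 19.9% of all genes, and 1 cell held 50.2% of the UMIs. The 3 higher genes include Igfbp6, so nothing is read from this count. Igfbp5 was higher by 1.52, but 19 of its 23 UMIs were in 1 cell and the ratio was −0.05 without the cell holding most in each library. Igfbp7, at 0.59, was 0.29 without such cells. Igfbp2 had 1 UMI and Igfbp3 3 UMIs, giving −2.18 and −2.73; the sign of Igfbp2 turned when cells were thinned (0.01) and that of Igfbp3 when cluster 34 was counted in (0.37). The fibroblast markers Pdgfra and Dpt were at 0 in these 5 cells, while the 9 fibroblast markers summed to 75119 CPM.

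Keratinocyte RNA differed between the same libraries. The 14 keratinocyte markers summed to 30942 CPM in DMSO fibroblasts, 840 CPM with the ERK inhibitor, 13856 CPM with the ErbB2 inhibitor and 17512 CPM with the FGFR inhibitor, with all 14 detected except with the ERK inhibitor (9). Igfbp3, an epidermal member, was lower in all 3 inhibitor libraries too; the part of keratinocyte RNA in its ratios was not tested. Igfbp6 was higher where these markers were lower. In DMSO fibroblasts the keratinocyte list was at 31077 CPM in the 13 cells with Igfbp6 and 30931 CPM in cells without. The part of keratinocyte RNA in the Igfbp6 ratios was not tested either.

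The rest of the axis was taken from lists of ligands, receptors, proteases and signalling genes. Their counts stand beside 11.6% of all genes higher and 8.08% lower with the ErbB2 inhibitor, and 11.9% and 9.3% with the FGFR inhibitor. Of the other ligands and receptors, 2 of 3 measured were higher with the ErbB2 inhibitor: Igf2, the second ligand, at 98.8 CPM against 31.9 CPM (1.61) and the growth hormone receptor Ghr at 84.4 CPM against 45.2 CPM (0.89). With the FGFR inhibitor none of the 3 passed 1.5-fold. Of the proteases that cut binding proteins, 2 of 5 were higher with the ErbB2 inhibitor, Adam12 (0.70) and Htra1 (0.59), and 2 of 4 were lower with the FGFR inhibitor, Adamts1 (−1.71, 3 UMIs) and Mmp3 (−0.87). Of the receptor's signalling genes 1 of 10 was higher with the ErbB2 inhibitor, Grb10, an adaptor that restrains the receptor (0.70), while 2 of 8 were higher and 1 lower with the FGFR inhibitor.

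Lists of fibroblast subtype genes were read beside Igfbp6, against the same shares of all genes. Adventitial genes were higher for 4 of 6 with the ErbB2 inhibitor, with Pi16 (2.24) and Clec3b (1.59) furthest, and for 4 of 4 with the FGFR inhibitor, with Pi16 (1.75) and Clec3b (0.69). Their medians were 0.87 and 0.68. Myofibroblast genes were higher for 2 of 7 and 4 of 7, among them Tagln (1.19) and Tnc (0.70) with the FGFR inhibitor. In the 5 ERK inhibitor cells 5 of 6 perineurial genes were higher, where 35% of all genes were, with Apod at 4178 CPM against 51.4 CPM. Of these cells 1 held 50.2% of the UMIs and another 33.8%, and the spread of Apod over them is not given. Perineurial counts with the other inhibitors, and adventitial and myofibroblast counts in these cells, are not given either. These lists were drawn up with earlier results of these data known.

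Cluster 34 had the highest Igfbp6 level in spiny mouse with DMSO and gave smaller ratios. Igfbp6 was at 795 CPM with the ErbB2 inhibitor (197 UMIs in 143 cells) and at 831 CPM with the FGFR inhibitor (87 UMIs in 59 cells), against 594 CPM in 136 DMSO cells. These ratios of 0.42 (0.11 to 0.73) and 0.49 (0.09 to 0.87) lie within 1.5-fold, though the first was 0.59, just past it, without the cell holding most UMIs in each library. Igfbp5 was higher, at 0.80 (0.15 to 1.52) and 0.83 (−0.06 to 1.66), and Igfbp3 was at 0.20 and 0.61. Igfbp2 went the other way, at −0.57 and −1.18, the latter on 7 against 46 UMIs. The ERK inhibitor library had 4 cells of this cluster, too few for a ratio.

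Within cluster 34 the cells with an Igfbp6 UMI were compared with the rest over the list of 12 perineurial and endoneurial fibroblast genes, which mark the sheath of nerves. The list summed to 7875 CPM in the 32 DMSO cells with Igfbp6 and 987 CPM in the 104 without, to 12773 and 2434 CPM with the ErbB2 inhibitor, and to 15262 and 2260 CPM with the FGFR inhibitor. Most of this was 1 gene: Apod, a secreted lipocalin, gave 468 of the 509 UMIs in the DMSO cells with Igfbp6, and its levels were 7240 and 116 CPM. Coch went the other way, at 0 and 644 CPM, but all 133 of its DMSO UMIs were in 1 cell. Dcn, a matrix proteoglycan outside the list, was at 5771 and 910 CPM with DMSO.

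In mouse fibroblasts all 8 genes were lower with FGF2 and NRG1 than with PBS, where 29.1% of all measured genes were lower and 17.8% higher. The median of the 8 ratios was −1.54 and that of all genes −0.15. The comparison is between 153 cells with the growth factors and 32 with PBS, and each value below is given in that order.

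The ligand Igf1 was at 173 CPM against 417 CPM (328 and 87 UMIs), a ratio of −1.28 (−1.61 to −0.91). The receptor Igf1r was at 77.5 CPM against 124.5 CPM, −0.73 (−1.29 to −0.02), and its call was lost without the cell holding most UMIs in each library (−0.58). Both ends of the axis were thus lower in the growth factor library, the receptor by less and with an interval that nearly reached 0.

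Among the binding proteins Igfbp3 was at 26.9 CPM against 153 CPM, −2.53 (−3.18 to −1.83), with 15 of its 32 PBS UMIs in 1 cell; without the cell holding most in each library it was −1.94. Igfbp5 was at 307 CPM against 1547 CPM, −2.34 (−2.53 to −2.13), although 1 PBS cell held 110 of its 323 UMIs; without such cells it was −2.03. Igfbp6 was at 269 CPM against 1135 CPM, −2.08 (−2.30 to −1.85). The intervals of these 3 lay wholly below those of the ligand and the receptor.

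Igfbp2 was at 71.1 CPM against 235 CPM, −1.74 (−2.20 to −1.22). Igfbp7 was at 502 CPM against 1260 CPM, −1.33 (−1.53 to −1.13). Igfbp4 was the smallest, at 502 CPM against 790 CPM, −0.66 (−0.90 to −0.41). Its call was lost without the cell holding most UMIs in each library (−0.39), which left 6 of 8 genes lower, and its sign turned when every annotated fibroblast, cluster 34 included, was counted (0.27); 5 of the 8 genes were lower then.

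The share of fibroblasts with an Igfbp6 UMI was 77.8% with the growth factors (119 of 153) and 71.9% with PBS (23 of 32), at median depths of 11177 and 4203 UMIs. Thinned to 1000 UMIs per cell the shares were 20.9% (14.8% to 28.2%) and 44.8% (26.4% to 64.3%). In macrophages 10.1% and 10.3% of cells had an Igfbp6 UMI, and 3.05% and 2.91% after thinning.

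**Figure D3:**
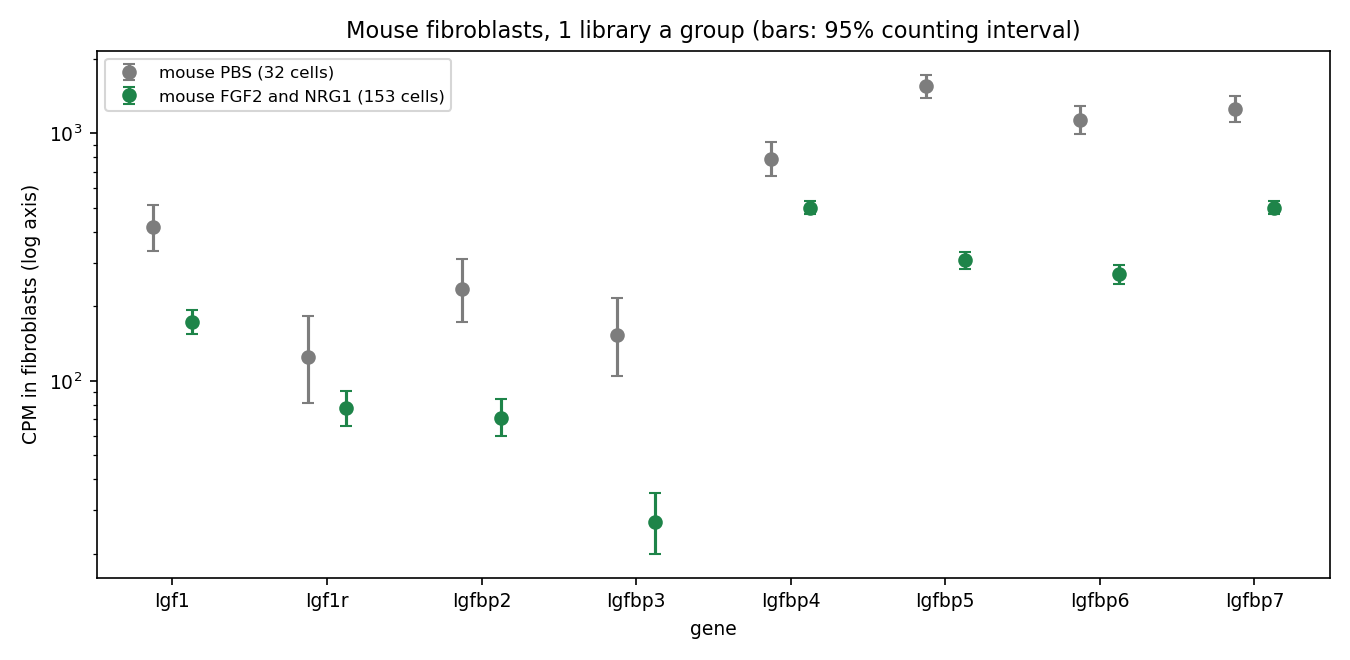
Levels (CPM, log axis) of the 8 genes in mouse fibroblasts with PBS beads (32 cells) and with FGF2 and NRG1 beads (153 cells); points are class totals and bars 95% counting intervals. Each gene is lower with the growth factors, from Igfbp4 at 502 against 790 CPM to Igfbp3 at 26.9 against 153 CPM.

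Other genes of the axis in the same fibroblasts are read beside the 29.1% of all genes that were lower. Of the other ligands and receptors 3 of 4 were lower: Igf2 (36.9 against 134 CPM, −1.89), Ghr (42.7 against 81.4 CPM) and the insulin receptor Insr (−0.75, on 26 and 4 UMIs), while Igf2r was at −0.20. Of the proteases 5 of 8 were lower, with Htra3 (−3.18), Htra1 (−2.34) and Pappa (−1.89), the pappalysin that cuts IGFBP4. Of the signalling genes 4 of 15 were lower, with the adaptor Irs1 (−2.60) and the kinase subunit Pik3r1 (−1.54), and none was higher; that count is near the share of all genes.

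Fibroblast identity genes differed too. The 9 fibroblast markers summed to 16320 CPM with the growth factors and 70330 CPM with PBS, the keratinocyte markers to 2099 and 5943 CPM and the neutrophil markers to 60.1 and 1264 CPM. Beside 29.1% of all genes, adventitial genes were lower for 7 of 9, with Clec3b (−3.86) and Pi16 (−3.53), and myofibroblast genes for 5 of 7, with Lrrc15 (−3.20) and Postn (−2.18). Crabp1, from the list of papillary dermal genes, was at 783 against 522 CPM (0.57), within 1.5-fold. The rest of that list is not given here. The part that a different mix of fibroblasts has in the ratios of the 8 genes was not tested.

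Chondrocytes, the cells of the ear cartilage, gave a partly similar picture in mouse, with 248 cells against 36. Igfbp5 was at 246 CPM against 1293 CPM, −2.40 (−2.57 to −2.22), and Igf1 at 56.3 CPM against 229 CPM, −2.03 (−2.42 to −1.62). Igfbp2 was lower by −0.91 and Igfbp6 by −0.68 (−1.32 to 0.14), but without the cell holding most UMIs in each library these were −0.51 and −0.36, within 1.5-fold. Igfbp4 was higher, at 86.2 CPM against 35.3 CPM, 1.18 (0.46 to 2.26), on 12 UMIs with PBS. Of 7 measured genes 1 was higher and 4 lower, beside 13.8% and 26.6% of all genes.

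In spiny mouse chondrocytes Igfbp5 was higher with both inhibitors that had enough cells. It was at 69.3 CPM with the ErbB2 inhibitor and 96.3 CPM with the FGFR inhibitor against 35.5 CPM with DMSO, 0.97 (0.24 to 1.69) and 1.44 (0.72 to 2.15), on 32, 34 and 37 UMIs. Igfbp2 was lower, by −0.99 (−1.33 to −0.68) and −1.82 (−2.35 to −1.39). Igfbp3 was at −2.27 with the ErbB2 inhibitor, on 29 against 325 UMIs and at the level of free RNA, and at −0.50 with the FGFR inhibitor, or −1.68 without 1 cell with 48 of its 77 UMIs and the top DMSO cell. Of 5 measured genes 1 was higher and 2 lower with the ErbB2 inhibitor (13.5% and 10.6% of all genes), and 2 higher and 1 lower with the FGFR inhibitor (12.8% and 11.7%). Igf1, with 16 and 24 UMIs, was the other higher gene with the FGFR inhibitor, at 45.3 CPM against 23.03 CPM, with an interval of the log2 ratio from −0.03 to 1.95.

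In the epidermis Igfbp3 was the member that stood out with the ERK inhibitor. Over basal, cycling basal and suprabasal keratinocytes together it was at 2205 CPM against 859 CPM with DMSO (10039 and 36562 UMIs in 256 and 6934 cells), 1.36 (1.33 to 1.39). In basal keratinocytes it was at 4052 CPM against 1222 CPM, 1.73 (1.68 to 1.77), and in suprabasal cells at 1625 CPM against 622 CPM, 1.39. The basal ratio was 1.56 without the cell holding most UMIs in each library, 730 of 5201 with the ERK inhibitor. In cycling basal cells Igfbp3 was within 1.5-fold at 0.11. By cluster, 7 of 8 measured were higher and 1 lower, from −3.71 to 2.52. All 2 basal and 5 suprabasal clusters measured were higher. The lower one, at −3.71, was thus the only cycling basal cluster measured, which the value of 0.11 over all cycling basal cells does not show.

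Igfbp2 went the other way. It was lower by −1.20 (−1.35 to −1.07) over the epidermal keratinocytes and stood at 53.0 CPM against 342 CPM in basal keratinocytes, −2.67, but at 0.03 in cycling basal cells. With clusters weighted as in the DMSO library the ratio was −0.03 and no longer passed 1.5-fold, although 6 of 8 measured clusters were lower and none higher.

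The receptor Igf1r was higher by 0.67 (0.17 to 1.09) in these keratinocytes, and −0.14 when cells were thinned. Igfbp7 was lower by −0.81. Igfbp5 and Igfbp6 had 1 UMI each with the ERK inhibitor, and their ratios of −0.91 and −2.81 changed sign under thinning in at least 1 form. With these, 2 of 6 measured genes were higher and 4 lower, beside 11.1% and 12.5% of all genes.

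The other inhibitors differed from this in Igfbp3. In basal keratinocytes it was at 821 CPM with the ErbB2 inhibitor, −0.57 (−0.62 to −0.53), and at 2219 CPM with the FGFR inhibitor, 0.86 (0.83 to 0.89). Basal keratinocytes therefore ranged from 821 CPM to 4052 CPM over the 4 spiny mouse libraries, with DMSO and the FGFR inhibitor between. Over all epidermal keratinocytes the ratios were −0.35 and 0.49, both within 1.5-fold. By cluster 1 of 15 was higher and 6 lower with the ErbB2 inhibitor, and 6 of 15 were higher and 1 lower with the FGFR inhibitor.

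Igfbp2 was lower with both, by −0.79 and −0.60. Igfbp6 was lower by −0.67 and −1.17 and Igfbp7 by −0.72 with the ErbB2 inhibitor, at −0.42 with the FGFR inhibitor; Igfbp5 was lower by −1.85 with each, on 7 and 4 UMIs. Over the pooled class this gave 0 of 6 genes higher and 4 lower with the ErbB2 inhibitor (5.96% and 13.8% of all genes). With the FGFR inhibitor 0 of 6 were higher and 3 lower (4.71% and 10.4%). In basal keratinocytes alone Igfbp2, Igfbp6 and Igfbp7 were within 1.5-fold with the ErbB2 inhibitor, at −0.23, 0.16 and −0.44. With the FGFR inhibitor Igfbp2 was at −0.22 there and Igfbp6 at −1.20. Clusters weighted to the DMSO mix left 1 gene past 1.5-fold with the ErbB2 inhibitor. In the pooled class the sign of Igfbp6 with the FGFR inhibitor turned under thinning (0.26). The Igfbp5 ratios hold for this class only, which leaves out clusters 1, 21, 31 and 44. Cluster 21 held 22 Igfbp5 UMIs with the ErbB2 inhibitor (4.52 CPM, 674 cells) and 17 with DMSO (10.99 CPM, 149 cells). Cluster 1 held 6 against 2 UMIs in the same comparison, and clusters 31 and 44 held 0 against 5 and 1.

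In pooled mouse epidermal keratinocytes only Igfbp4 passed 1.5-fold among 7 measured genes, where 4.19% of all genes were higher and 3.86% lower. It was at 30.2 CPM against 18.3 CPM, 0.73 (0.47 to 0.99). By cluster Igfbp4 was higher in 2 of 4 measured, from 0.15 to 1.34. The parts differed: of 7 measured genes none passed in basal cells, while 3 were higher and 1 lower in suprabasal cells. Of 6 in cycling basal cells 1 was lower. Shares of all genes are not given for these parts. Over the pooled class Igfbp3 was at −0.46 and Igfbp6 at −0.22. The fibroblast ratios of the same genes, −2.53 and −2.08, are much further from 0, and the difference between the cell types was not tested.

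**Figure D4:**
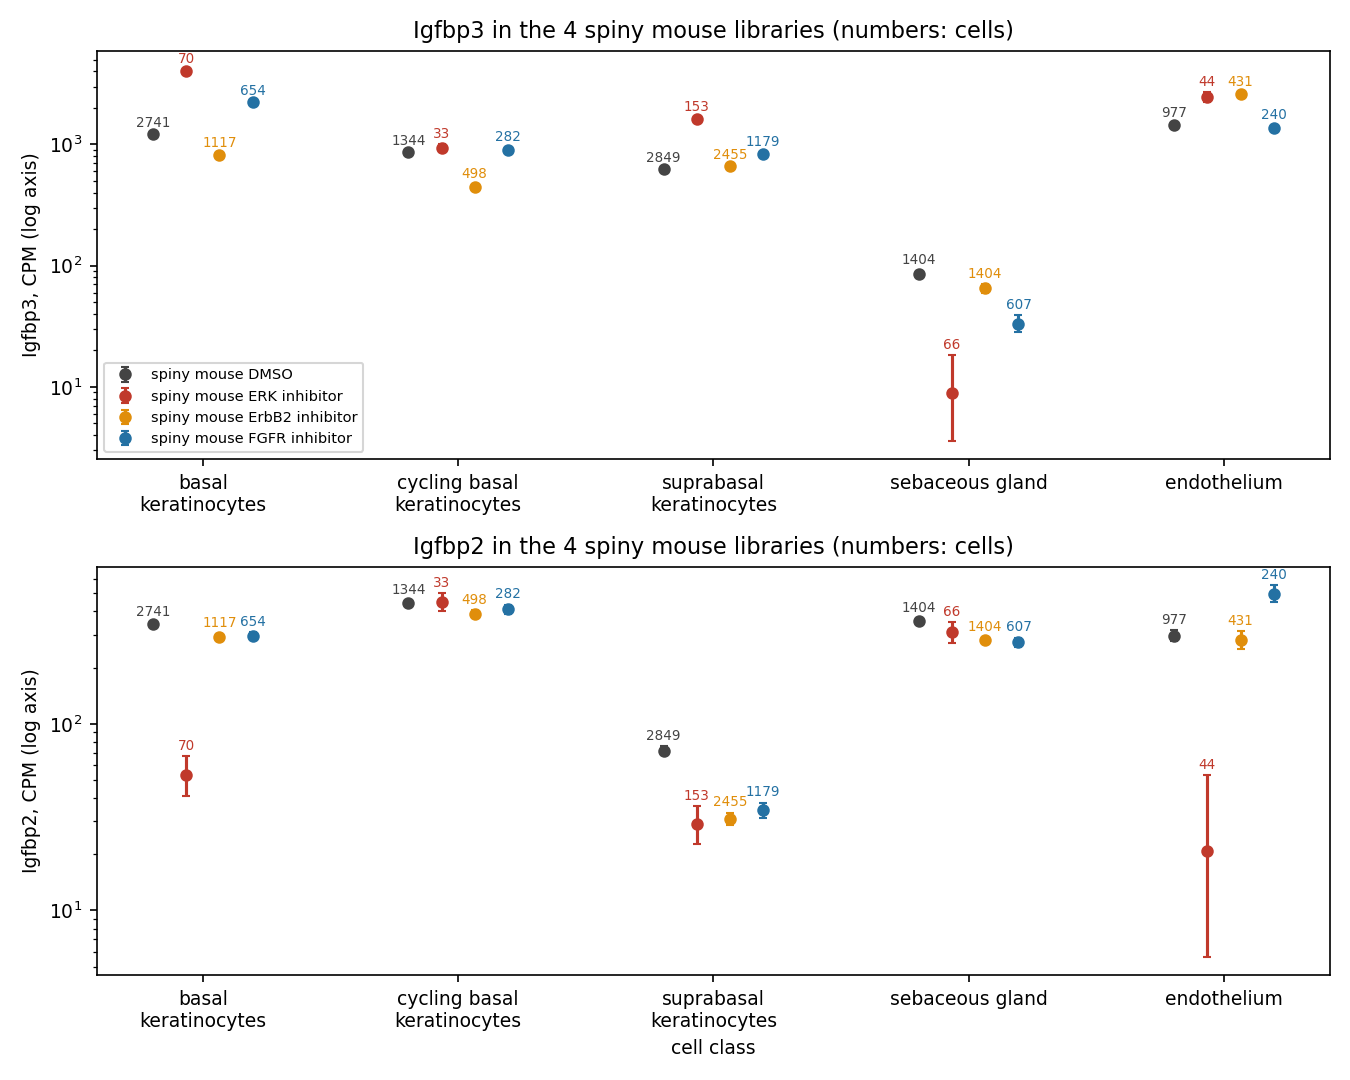
Levels (CPM) of Igfbp3 and Igfbp2 in the 4 spiny mouse libraries for basal, cycling basal and suprabasal keratinocytes, sebaceous gland and endothelium; points are class totals with 95% counting intervals. In basal keratinocytes Igfbp3 runs from 821 CPM with the ErbB2 inhibitor to 4052 CPM with the ERK inhibitor, and Igfbp2 is at 53.0 CPM with the ERK inhibitor against 342 CPM with DMSO.

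In endothelium Igfbp3 was at 2463 CPM with the ERK inhibitor (475 UMIs in 44 cells), 2616 CPM with the ErbB2 inhibitor (2907 UMIs in 431 cells) and 1363 CPM with the FGFR inhibitor, against 1446 CPM with DMSO in 977 cells. The ratios were 0.77 (0.63 to 0.91), 0.86 (0.79 to 0.92) and −0.08. The first was 0.48, within 1.5-fold, without the cell holding most UMIs in each library (111 of 475 with the ERK inhibitor). Clusters differed widely within the class with DMSO: cluster 8, led by the venous adhesion genes Ackr1, Sele and Selp, was at 399 CPM, cluster 17, led by Gja4 and Sox17 of arteries but also Ccl21a of lymphatics, at 1862 CPM, and cluster 29, led by the capillary genes Gpihbp1 and Kdr, at 2917 CPM. With the ErbB2 inhibitor they were at 658, 4894 and 4211 CPM, each above DMSO. With the ERK inhibitor cluster 8 was at 78.2 CPM in 18 cells and cluster 17 at 8192 CPM in 15 cells, on opposite sides of DMSO.

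Igfbp7, the vessel member, was lower in endothelium with the ERK inhibitor, at 555 CPM against 2397 CPM, −2.10 (−2.40 to −1.84), and Igfbp2 had 4 UMIs there, −3.52. Of 4 measured genes 2 were higher and 2 lower, beside 33.3% and 18.6% of all genes. With the ErbB2 inhibitor 2 were higher and none lower (10% and 8.25%), the other being Igf1r at 0.95 (0.01 to 1.84). With the FGFR inhibitor Igfbp2 was the one higher gene, at 498 CPM against 297 CPM, 0.75 (0.57 to 0.93; 15.2% and 9.47%), and Igfbp7 was at 0.49. That Igfbp2 call was lost without the cell holding most UMIs in each library (0.57), and of 3 clusters 1 was higher and 1 lower, from −0.76 to 1.08.

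Igfbp7 in cluster 38, the mural-led cluster, was at 5769 CPM with the ErbB2 inhibitor and 5620 CPM with the FGFR inhibitor against 3669 CPM with DMSO, 0.65 (0.52 to 0.79) and 0.62 (0.47 to 0.76). In mouse endothelium, with 940 cells against 346, Igfbp7 was within 1.5-fold, and of 8 measured genes none was higher and 2 were lower, Igfbp5 at −1.01 (−1.39 to −0.61) and Igfbp2 at −0.75, beside 4.41% and 9.86% of all genes. By cluster Igfbp5 was higher in 1 (0.74) and lower in 1 (−0.80) of the 2 measured. Igfbp2 in mouse endothelium was no higher than free RNA could give: it lay less than 3 times above the lowest class and more than 10-fold below the highest.

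**Figure D5:**
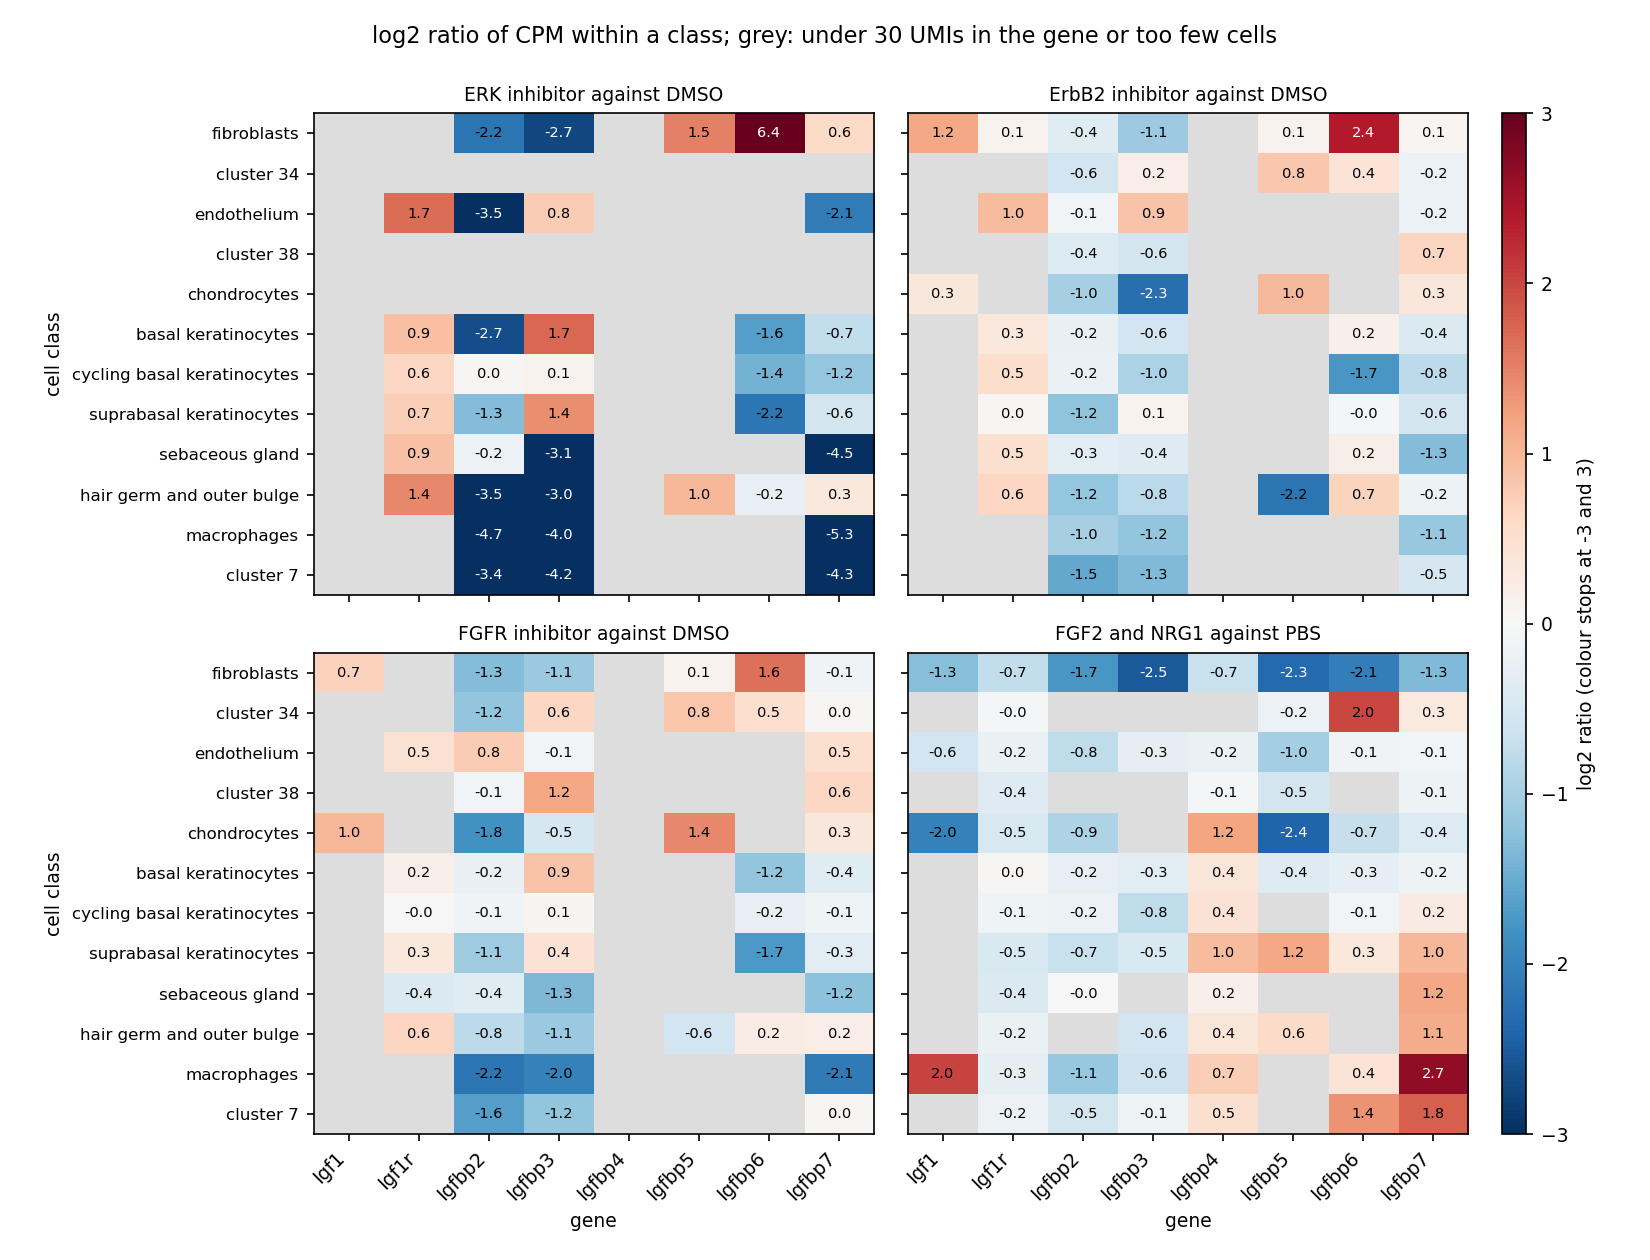
Log2 ratios of the 8 genes (columns) in the cell classes (rows) for each of the 4 comparisons (panels); colour stops at 3 in either direction, and grey marks fewer than 30 UMIs or too few cells. The mouse fibroblast row is lower for every gene, Igfbp3 in basal keratinocytes is 1.73 with the ERK inhibitor and −0.57 with the ErbB2 inhibitor, and Igfbp6 in fibroblasts is 2.38 and 1.64 with the ErbB2 and FGFR inhibitors.

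Likeness across cell types was described over 72 class-by-library units of at least 30 cells in the 4 spiny mouse libraries, by Pearson's r of log2(CPM + 1) among 9150 genes with at least 500 UMIs. Units of 1 library share its depth and its free RNA, and units of 1 class share its cells, so no test is given. Igfbp5 was most like Shisa4 (0.90), the stromal gene Mxra8 (0.89) and AW551984 (0.88), and Igfbp6 most like Thbs2 (0.77), Mdk (0.75) and Dcn (0.73). Igfbp7 was most like the laminin gene Lamb2 (0.81), Id3 (0.81) and Pam (0.80). Igfbp3 was most like Sema3d (0.72), Ccl7 and Gnai1 (both 0.67), Igfbp2 like Prxl2a (0.73), Dynll2 (0.71) and Nckap1 (0.65), and Igf1r like Lztfl1 and Micu3 (both 0.74) and Pwwp3a (0.71).

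Among the 8 genes themselves the highest values were between Igf1 and Igfbp5 (0.74), Igfbp5 and Igfbp6 (0.66) and Igfbp4 and Igfbp5 (0.65). Igf1 and Igfbp2 were lowest, at −0.10. Igf1 and Igfbp4 had fewer than 500 UMIs in spiny mouse, so no genes most like them were sought. Igfbp2 and Igfbp5, the neighbours on chromosome 1, differed in where they were highest with DMSO, cycling basal keratinocytes for the first and fibroblasts for the second.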

How the data were processed

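The authors deposited raw UMI counts per gene and cell for 6 libraries, with a table of cell annotations (library, cluster and cell type; no numeric unit). Cell Ranger 6.1.1 and the build GRCm38 (mm10) are named per the submitters' processing notes. No source used here gives the reference for the spiny mouse libraries or the rule by which cells were kept; the smallest number of genes per deposited cell was 501. No doublet caller was run.

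Counts were summed over the cells of a class and library and scaled to CPM. Classes followed the authors' annotation. A cluster whose 10 leading genes by fold, among genes detected in at least 20% of its cells, held more markers of another type than of its own was given by number; clusters 34 and 45 were set apart after seeing the data. Levels were given for classes of at least 15 cells and ratios for at least 30 cells in both libraries, with fibroblasts always shown. Ratios used 1 added UMI on each side, the exact conditional binomial 95% interval, a minimum of 30 UMIs and a 1.5-fold call; a count of 0 was given a bound from a floor of 3 UMIs. Shares have exact Clopper-Pearson intervals. UMIs per library ran from 7429819 to 70058081. PCR copies are collapsed by the UMI, and intervals cover counting error only.

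The 8 genes and the gene lists were chosen with earlier results of these data known. Text names the 8 genes and, of each list, up to 4 genes with the largest ratio; Dcn, Apod and Coch in cluster 34 were named after their values were seen. Scripts were tested on simulated data. Gene models and sequence were GENCODE vM21 on GRCm38. Python 3.11.15, NumPy 2.4.6, SciPy 1.17.1, pandas 2.3.3 and Matplotlib 3.10.9 were used.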

Additional observations from a re-analysis of the deposited data

Results flagged for a closer look

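A gene is listed here where the same comparison gave ratios of opposite sign in a pair of cell classes, with both counting intervals wholly beyond 1.5-fold. Classes in which either library stood at the level of free RNA were left out, as were the pooled epidermal keratinocytes and the inhibitor contrasts in fibroblasts, which the choice of genes had used; of the remaining classes the highest and the lowest are given. None of these differences was tested, since each group is 1 library. With the ErbB2 inhibitor Igfbp3 was at 0.855 in endothelium and −1.32 in cluster 7, where it was at 155 CPM against 403 CPM with DMSO. In cluster 7, 1 cell held 44 of the 134 DMSO UMIs, and the ratio was −0.92 without the cell holding most in each library. With the FGFR inhibitor Igfbp3 was at 1.91 in dendritic cells and −2.02 in macrophages. The macrophage levels of Igfbp3 stood in the same order as keratinocyte RNA over the spiny mouse libraries, as given below.

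In mouse, with FGF2 and NRG1 against PBS, Igf1 was at 2.02 in macrophages, on 60 against 3 UMIs, and −2.03 in chondrocytes. Igfbp6 was at 2 in cluster 34 and −2.08 in fibroblasts; in cluster 34, 12 of the 14 PBS UMIs and 23 of the 61 growth factor UMIs were in 1 cell each, and without those cells the ratio was 3.66. Igfbp7 was at 1.8 in cluster 7, on 58 against 12 UMIs, and −1.33 in fibroblasts.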

How the results depend on the processing

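Of 51 ratios with 510 alternative values, 388 stayed within the counting interval of the reported ratio, 15 called ratios changed sign and the other 107 lay outside that interval. No paired analysis was possible because each group has 1 library. Alternatives without the cell holding most UMIs of the gene, and thinning without the added UMI, were chosen after seeing the data. In ERK inhibitor fibroblasts, 5 genes past 1.5-fold became 2 when cells were thinned to 1000 UMIs, 3 without the cell holding most UMIs and 3 with every annotated fibroblast; Igfbp2 was 0.0090 thinned and 1.64 thinned without the added UMI, Igfbp7 was then −0.24, Igfbp5 was −0.049 without the cell holding most, and Igfbp3 was 0.37 with every annotated fibroblast. In ERK inhibitor keratinocytes, 6 genes became 3 at 2-fold; thinned, and thinned without the added UMI, Igf1r was −0.14 and −1.11 and Igfbp5 2.23 and 4.08, Igfbp6 was 1.55 in the latter, and Igfbp5 was 0.40 with all annotated interfollicular epidermis. In ErbB2 inhibitor keratinocytes, 4 genes became 1 at 2-fold and 1 when clusters were weighted to the DMSO mix. With the FGFR inhibitor Igfbp6 in keratinocytes was 0.26 thinned and 0.18 thinned without the added UMI, and Igfbp5 was 0.97 in the latter. In mouse fibroblasts, 8 genes became 5 with every annotated fibroblast, where Igfbp4 was 0.27. In mouse keratinocytes, 1 gene became 3 thinned, 3 thinned without the added UMI, 2 at a minimum of 10 UMIs and 0 at 2-fold. The cause of these shifts was not tested. The low counts of Igf1 and Igfbp4 limit their values in spiny mouse, and the 5 and 32 fibroblasts of the ERK inhibitor and PBS libraries limit every fibroblast value from them.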

Other observations

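Hair germ and outer bulge cells, the progenitors of the follicle, carried more Igf1r with the ERK inhibitor (1.44) and the ErbB2 inhibitor (0.62) than with DMSO. Igfbp2 there was at −3.54 and −1.16. Igfbp5 was at −2.20 with the ErbB2 inhibitor and Igfbp6 at 0.67 (0.27 to 1.09). The Igfbp5 ratio came from cluster 2 of this class, at 3.45 CPM against 23.9 CPM with DMSO (6 and 36 UMIs). Cluster 26 was at 5.97 CPM against 5.02 CPM, on 3 and 2 UMIs. With the ERK inhibitor Igfbp5 in cluster 2 was above DMSO, at 39.7 CPM on 13 UMIs. In mouse, cluster 7, led by Cxcr2 and Csf3r, had Igfbp6 at 475 CPM with FGF2 and NRG1 (336 UMIs in 611 cells) against 185 CPM with PBS (100 UMIs in 307 cells), 1.35 (1.04 to 1.70), and was the highest class for Igfbp6 in the growth factor library, ahead of fibroblasts at 269 CPM. In spiny mouse the same cluster had 3 Igfbp6 UMIs with DMSO, 1 with the ErbB2 inhibitor and 0 with the other inhibitors.

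Igfbp3 was counted in spiny mouse immune cells at levels that stood in the same order as keratinocyte RNA over the 4 libraries in macrophages. In macrophages it was at 237 CPM with DMSO, 12.2 CPM with the ERK inhibitor, 103 CPM with the ErbB2 inhibitor and 56.4 CPM with the FGFR inhibitor. The 14 keratinocyte markers summed to 36084, 793, 25133 and 15170 CPM in the same cells. T cells had 241 CPM of Igfbp3 with DMSO, 72.0 CPM with the ErbB2 inhibitor and 81.7 CPM with the FGFR inhibitor. Igfbp7 had 0 UMIs in ERK inhibitor macrophages and was at least 13.1-fold lower than with DMSO, and Igfbp2, also at 0, at least 8.53-fold lower. Whether these molecules come from the immune cells was not tested.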
